A study of Mus musculus with 30 samples.

Results

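The comparison described here asked what mechanical ventilation (MV) did to the lung of the 21-day-old mouse when it followed inhalation of bacterial lipopolysaccharide (LPS). It set the 3 arrays of juvenile mice given LPS and then ventilated (LPS+MV) against the 4 arrays of juvenile mice given LPS and then left to breathe on their own (LPS). These 7 arrays were taken, by the treatment and age in their titles, from the 30 arrays of the series, each of which holds total lung RNA of 1 animal. All animals were C57BL/6 mice, an inbred laboratory strain, and both groups were 21 days old. LPS+MV and LPS mice alike spent 30 min in a sealed chamber with an aerosol of 20 mL of Escherichia coli 0111:B4 LPS at 0.1 mg/mL. LPS+MV mice were then ventilated for 2 h at a tidal volume of 15 mL/kg, 80 breaths/min, 30% oxygen and a positive end-expiratory pressure of 2 cm H2O. LPS mice spent the same 2 h breathing spontaneously, with food and water at hand. Further sets of arrays serve for comparison. At 16 weeks they are adults given the same LPS+MV (4 arrays) or LPS (4 arrays), and untreated adult controls (4 arrays). At 21 days they are mice given the same MV without LPS (3 arrays) and untreated controls (4 arrays). For untreated controls of either age no study period is stated. Adults given MV without LPS (4 arrays) entered only the model, which was fitted to all 30 arrays. The labels do not describe anaesthesia or airway handling, and ventilation cannot be told apart from what came with it.

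LPS is sensed by Toll-like receptor 4 with its co-receptors CD14 and MD-2, which drive NF-kB and interferon regulatory factors and through them cytokines, neutrophil-attracting chemokines and interferon-stimulated genes. Ventilation with large breaths stretches alveolar epithelium and endothelium. Stretch is known to activate MAP kinases, serum response factor and YAP, whose early targets are the immediate early transcription factors, and to raise interleukin-6 and neutrophil recruitment in lungs already primed by LPS.

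The 7 arrays were of similar brightness, with upper quartiles of intensity between 100.6 and 108, and precision is set by how few arrays there are. Lung identity was clear on both groups, with mean intensities of 19150 in LPS+MV lungs and 20130 in LPS lungs for Sftpc, surfactant protein C of alveolar type 2 cells. The LPS+MV arrays were less alike than the LPS arrays. The lowest correlation of an array with another of its group was 0.980 to 0.982 among LPS+MV arrays and 0.989 to 0.992 among LPS arrays. LPS+MV array 3 stood farthest out: of the 2019 genes called below, it held the value farthest from the LPS arrays for 527 of 782 higher and 697 of 1237 lower genes. The labels do not give sex, and Xist, transcribed from the inactive X chromosome, stood at 20.9, 724 and 771 on the 3 LPS+MV arrays and at 19.5, 21.8, 18.4 and 21.6 on the 4 LPS arrays. LPS+MV arrays 2 and 3 thus carried a transcript pattern that no LPS array carried. Of 4 sex-linked genes tested, Xist was called higher and 0 were called lower. The Y-linked genes Eif2s3y (-1.77 ± 0.63), Kdm5d (-0.56 ± 0.20) and Uty (-0.33 ± 0.22 and -0.39 ± 0.33) were lower in LPS+MV lungs but did not pass. If these transcripts mark sex, it was unbalanced between the groups. The part of this pattern in the results was not tested other than by adding it to the model. For many named genes that lost their call without LPS+MV array 3 or with the Xist term, the adjusted p found there is given too.

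Values below are probe set intensities, and a change is the log2 fold change of intensity + 32, LPS+MV minus LPS, ± the standard error of a limma fit, with p-values adjusted by Benjamini and Hochberg over all genes tested. Of 13089 genes tested, 2019 (15.4%) passed an adjusted p of 0.05, 782 higher (5.97%) and 1237 lower (9.45%) in LPS+MV lungs. Most changes were small. Only 75 genes (0.573%) moved by at least 2-fold, 64 of them higher (0.489%) and 11 lower (0.0840%), and the median change over all genes was -0.02. Without LPS+MV array 3 the number called was 1277, with 478 higher and 799 lower. Of these, 1084 were among the 2019 and in the same direction. With the Xist term 1132 were called, of which 1063 were. List counts below are to be read beside these numbers over all genes, and no list was tested as a set. The 3 LPS+MV arrays lay wholly above the 4 LPS arrays for 1287 genes (9.83%) and wholly below them for 2121 (16.2%), 3408 in all (26.0%). Of these, 1827 were also called (14% of those tested), 695 higher (5.31%) and 1132 lower (8.65%). The genes farthest apart among those called and not overlapping were led upward by the heat shock genes Hspa1b and Hspa1a, the neutrophil granule gene Ngp, Il6, Tnfsf9, Malat1, Ptgs2 and Zfp36. Downward they were led by the anion exchanger gene Slc26a4, the acute phase gene Orm1, Txnip, Noxo1 and the cytokine gene Il33. Of the 15 highest, 11 kept an adjusted p under 0.05 without LPS+MV array 3, and of the 15 lowest 12 did. In whole lung, fewer cells of a type and less RNA per cell cannot be told apart.

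**Figure D1:**
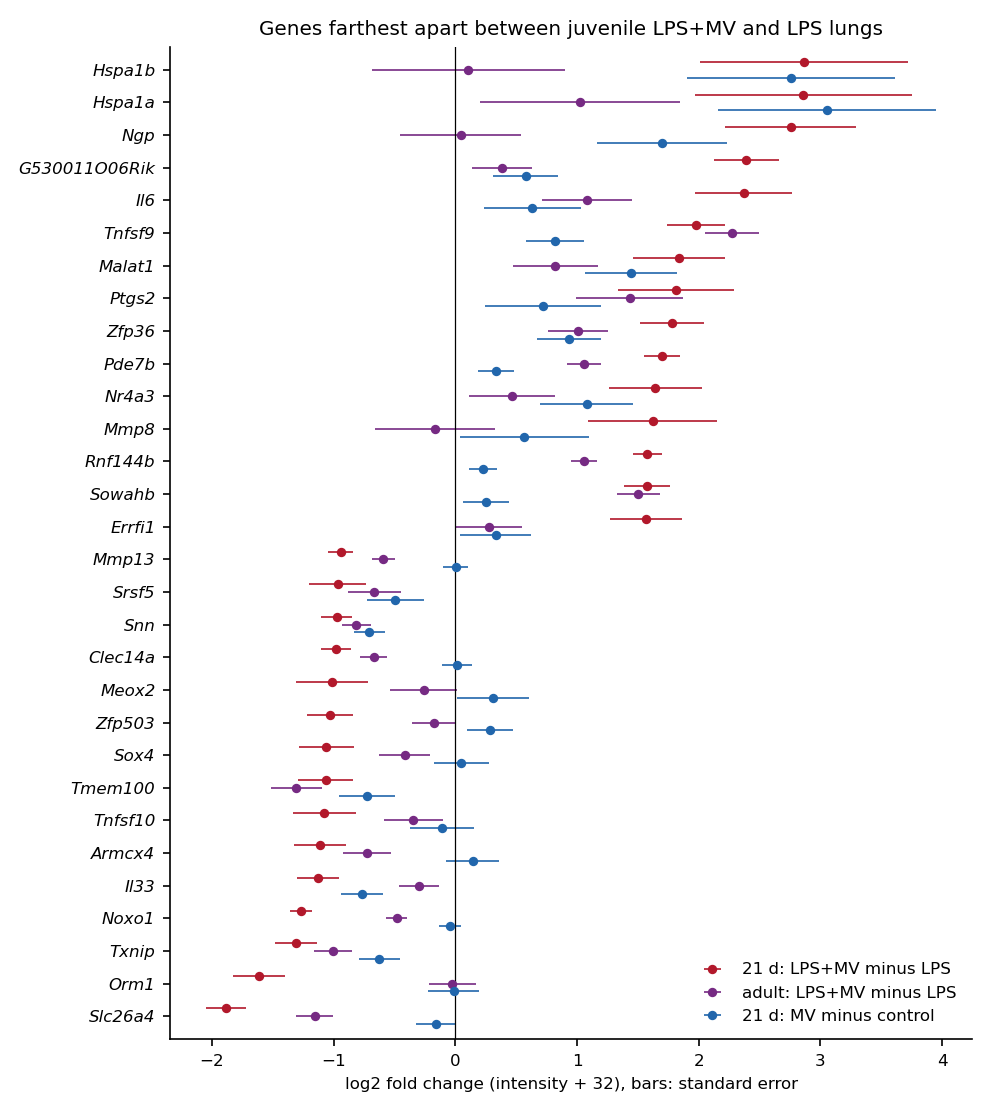
Log2 fold changes (x axis, intensity + 32) of the 15 highest and 15 lowest genes of juvenile LPS+MV minus LPS, with bars of 1 standard error, in that comparison (red), in adult LPS+MV minus LPS (purple) and in juvenile MV minus control (blue). Slc26a4 and Orm1 lie farthest left in red, at -1.88 and -1.61, while Orm1 lies near 0 in purple and blue.

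Il6, Tnfsf9, Ptgs2 and Csf3 rose among inflammatory genes. Il6, which encodes the cytokine that drives the hepatic acute phase response, stood at 439.6, 854 and 2462 on the LPS+MV arrays and at 175, 66.0, 206 and 274 on the LPS arrays. Every LPS+MV array was above every LPS array, with LPS+MV array 3 far above the others. The change was 2.37 ± 0.40 (adjusted p = 0.000204), and 1.72 ± 0.37 (adjusted p = 0.00433) without LPS+MV array 3. Csf3, the granulocyte growth factor G-CSF, stood at 83.2, 142 and 109 in LPS+MV lungs and at 33.8, 27.8, 29.1 and 26.5 in LPS lungs, a change of 1.21 ± 0.20 (adjusted p = 0.000216). The LPS lungs were all dim for this gene and the groups were far apart. Ptgs2, cyclooxygenase-2, stood at 359.8, 541 and 1009.6 in LPS+MV lungs and at 172, 121, 159 and 127 in LPS lungs, without overlap. Its change of 1.81 ± 0.48 (adjusted p = 0.0103) became 1.43 ± 0.53 (adjusted p = 0.086) without LPS+MV array 3 and had an adjusted p of 0.119 with the Xist term. Tnfsf9, the ligand of the T cell costimulatory receptor 4-1BB, stood at 362, 425 and 749.9 in LPS+MV lungs and at 115, 98.7, 96.9 and 91.1 in LPS lungs, a change of 1.98 ± 0.24 (adjusted p = 4.1e-06). Of the prostaglandin and leukotriene list, 2 of 13 members rose, Ptgs2 and the prostaglandin E2 receptor gene Ptger4 (0.74 ± 0.14, adjusted p = 0.000819). Another 3 fell, among them Hpgd, which encodes the enzyme that inactivates prostaglandin E2 (-0.56 ± 0.14, adjusted p = 0.00743, against 0.0717 without LPS+MV array 3 and 0.0749 with the Xist term), and the receptor gene Ptger2 (-0.45 ± 0.14, adjusted p = 0.0311, against 0.148 and 0.198). The list had 1 higher and 1 lower without that array. Among all genes tested, 5.97% rose and 9.45% fell.

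Other cytokines were mixed, where 5.97% of all genes tested rose and 9.45% fell. Of 16 cytokine genes tested, Il6 and Csf3 rose, Il33 and Csf2 fell, and the list's median was 0.09 against -0.02 over all genes. Il33, an alarmin stored in the nuclei of alveolar type 2 cells in mice, stood at 1058, 1127 and 1095 in LPS+MV lungs and at 2671, 2457, 2523 and 2086 in LPS lungs, which did not overlap (-1.13 ± 0.18, adjusted p = 8.44e-05). Csf2, the macrophage and granulocyte growth factor GM-CSF, stood at 496, 638 and 466 in LPS+MV lungs and at 1080.4, 679, 836 and 678 in LPS lungs. The groups did not overlap but came close, and its change of -0.58 ± 0.16 (adjusted p = 0.0181) had an adjusted p of 0.0983 without LPS+MV array 3, was also no longer called without LPS+MV array 1 or LPS array 1, and was 0.95 ± 0.15 in adults. Tnf (0.18 ± 0.13, adjusted p = 0.401) and Il1b (0.17 ± 0.35, adjusted p = 0.812) did not pass. A further 8 cytokine genes of the list, among them Il10, Ifng and Il17a, were below the intensity filter.

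**Figure D2:**
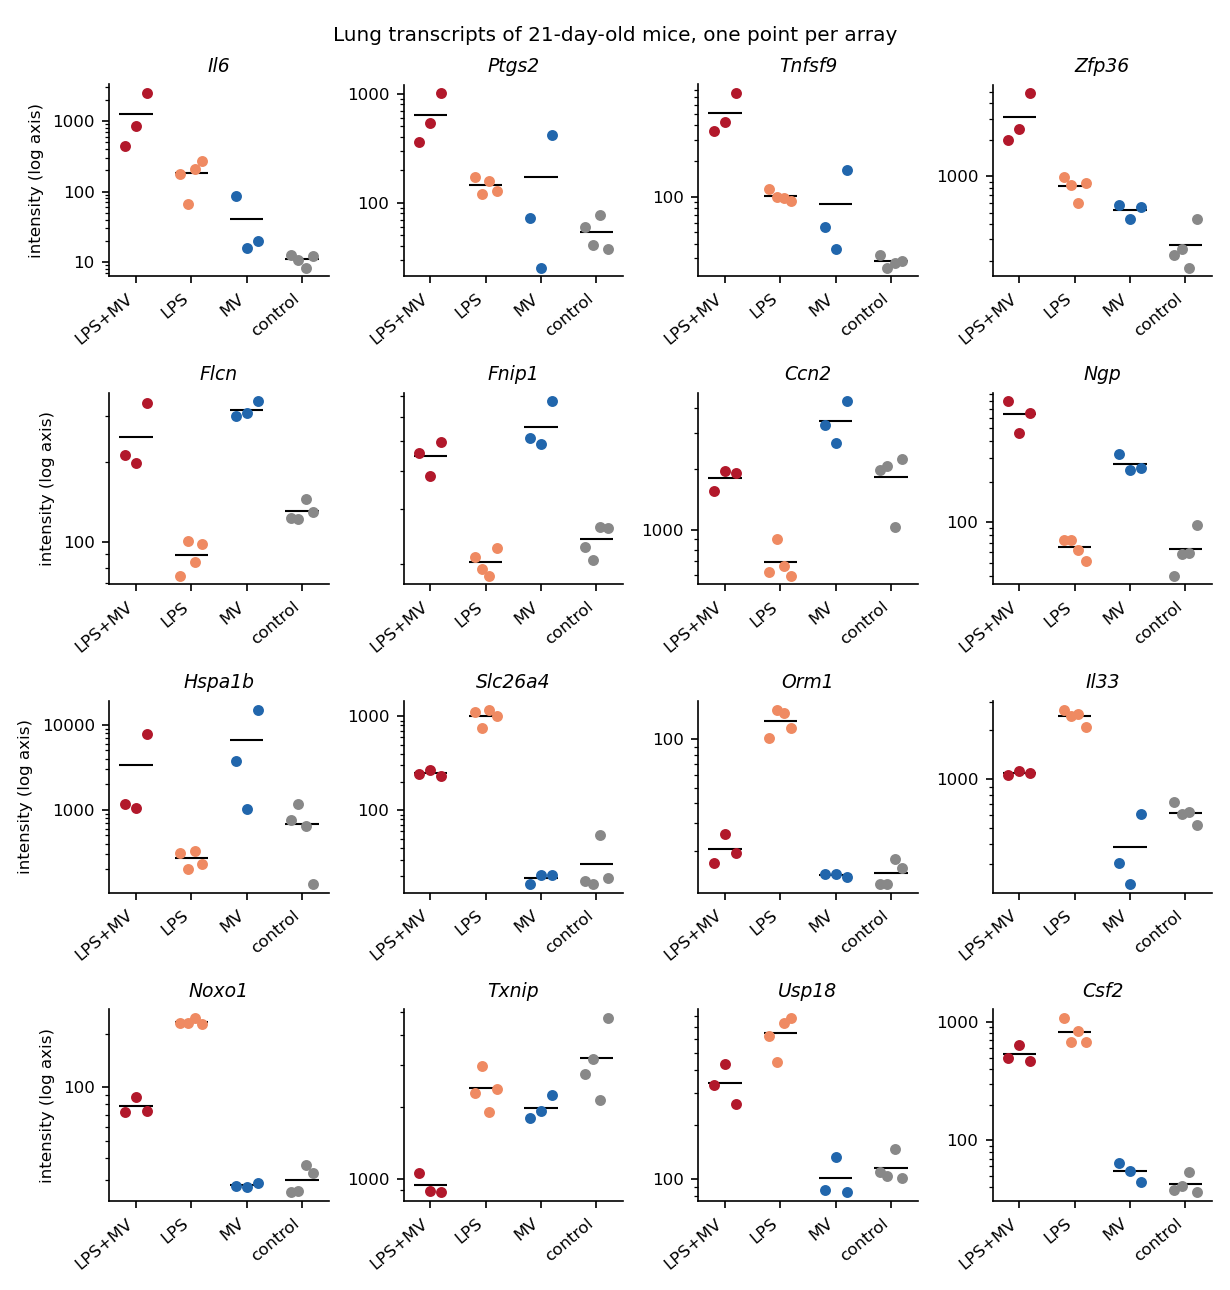
Intensity (y axis, log scale, one scale per gene) of 16 genes on each array of the 4 juvenile groups, with a bar at the group mean. Il6, Tnfsf9 and Zfp36 are highest on all 3 LPS+MV arrays, whereas Slc26a4, Orm1, Il33 and Noxo1 are highest on the 4 LPS arrays, and for Slc26a4, Il33 and Noxo1 the LPS+MV arrays lie between these and the animals not given LPS.

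A set of genes that are bright after LPS was dimmer when ventilation followed. Slc26a4 encodes pendrin, an anion exchanger of airway epithelium. It stood at 242, 269 and 230.1 in LPS+MV lungs and at 1109, 749, 1172 and 1003 in LPS lungs. The MV arrays stood at 16.6, 20.8 and 20.5 and the control arrays at 17.9, 16.5, 54.7 and 19.3, so LPS+MV lungs lay between LPS lungs and lungs not exposed to LPS. The fall of -1.88 ± 0.16 (adjusted p = 1.91e-08) was -1.84 ± 0.19 (adjusted p = 6.55e-07) without LPS+MV array 3. Orm1 encodes orosomucoid, an acute phase glycoprotein. It stood at 17.0, 25.4 and 19.5 in LPS+MV lungs and at 101, 154, 147 and 118 in LPS lungs, and control arrays stood at 12.4, 12.5, 17.9 and 15.6. LPS+MV array 1 lay within the range of untreated lungs and the others just above it (-1.61 ± 0.21, adjusted p = 1.09e-05). Noxo1, an organizer subunit of the NADPH oxidase NOX1, stood at 72.8, 88.6 and 73.3 in LPS+MV lungs and at 230.1, 230.1, 245 and 227 in LPS lungs (-1.27 ± 0.09, adjusted p = 1.35e-09). Mmp13, an interstitial collagenase, stood at 16.3, 32 and 18.4 in LPS+MV lungs and at 75.4, 73.0, 73.5 and 63.8 in LPS lungs (-0.94 ± 0.10, adjusted p = 9.72e-07). None of these 4 genes lost its call under any alternative run.

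Acute phase genes were called lower. Of 12 tested members 6 fell and 0 rose (9.45% and 5.97% over all genes), with a median of -0.50 against -0.02 over all genes. Besides Orm1, these were the serum amyloid genes Saa2 (-0.64 ± 0.11, adjusted p = 0.000201) and Saa1 (-0.70 ± 0.18, adjusted p = 0.0103), haptoglobin Hp (-0.44 ± 0.06, adjusted p = 2.74e-05), the LPS-binding protein gene Lbp and complement factor B (Cfb, adjusted p = 0.0329, against 0.154 with the Xist term). The Saa1 and Saa2 probe sets can cross-hybridise, and Saa1 had an adjusted p of 0.109 without LPS+MV array 3. Without that array 5 members were lower and 1 higher. Lcn2, a siderophore-binding protein of epithelium and neutrophils, stood at 4813, 4788 and 4601 in LPS+MV lungs and at 8087, 7503, 6903 and 7032 in LPS lungs. The groups were apart, but the change of -0.63 ± 0.22 did not pass (adjusted p = 0.0538).

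Of 24 interferon-stimulated genes tested, 5 fell (Usp18, Xaf1, Irf7, Oasl1 and Bst2) and 0 rose, with a median of -0.42. Usp18, an inhibitor of interferon receptor signalling, stood at 332, 436 and 259 in LPS+MV lungs and at 623, 446, 737 and 781 in LPS lungs. The groups met closely, at LPS+MV array 2 and LPS array 2, without overlap (-0.86 ± 0.18, adjusted p = 0.00192). Without LPS+MV array 3 the number was 3 and the median -0.34, with Xaf1 (adjusted p = 0.0982) and Bst2 (adjusted p = 0.131, and 0.125 with the Xist term) no longer called. Among the 11 tested genes of class I antigen presentation and the immunoproteasome, 3 fell. Psmb10, an immunoproteasome subunit, stood at 442, 420.1 and 359.8 in LPS+MV lungs and at 780.2, 715, 890.3 and 834 in LPS lungs (-0.93 ± 0.14, adjusted p = 5.74e-05). Psmb8, another subunit, changed by -0.63 ± 0.18 (adjusted p = 0.0157, and 0.103 with the Xist term). The class I heavy chains H2-K1 (0.16 ± 0.17, adjusted p = 0.594) and H2-D1 (0.18 ± 0.12, adjusted p = 0.329) did not pass. For MHC class II, 1 of 8 genes rose, Cd74 (0.26 ± 0.08, adjusted p = 0.0354, and 0.27 without LPS+MV array 3). Over all genes tested, 5.97% rose and 9.45% fell.

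Chemokines were mixed. Of 8 genes of the neutrophil-attracting CXC list, Cxcl3, Cxcl5 and Cxcl15 fell and Cxcl2 rose. Cxcl3 stood at 492, 515 and 358 in LPS+MV lungs and at 882, 632, 1028 and 799 in LPS lungs, without overlap (-0.83 ± 0.15, adjusted p = 0.000659). Cxcl5, a product of alveolar type 2 cells, changed by -0.72 ± 0.19 (adjusted p = 0.0119) and Cxcl2 by 0.62 ± 0.20 (adjusted p = 0.0311), in both cases with overlapping groups. Without LPS+MV array 3 only Cxcl3 passed (adjusted p = 0.0113), and with the Xist term Cxcl5, Cxcl2 and Cxcl15 did not pass either (adjusted p = 0.0882, 0.218 and 0.114). Of 18 genes of the interferon-induced CXC and CC chemokine list, Ccl20 (0.51 ± 0.12, adjusted p = 0.00633) and Ccl4 (0.82 ± 0.22, adjusted p = 0.0133) rose, while Ccl22 (-0.55 ± 0.17, adjusted p = 0.0252), Ccl17 and Ccl12 fell. Of these, Ccl4 (adjusted p = 0.165) and Ccl12 (adjusted p = 0.434) were no longer called without LPS+MV array 3, nor with the Xist term (adjusted p = 0.136 and 0.198). Ccl22 lost its call under 6 of 16 alternatives, with adjusted p up to 0.188, and Ccl20 under 1 (adjusted p = 0.054).

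In the Toll-like receptor and NF-kB list, 6 of 22 genes rose and 5 fell (5.97% and 9.45% over all genes), with a median of 0.09. Without LPS+MV array 3, 3 were higher and 4 lower. Tlr4 changed by 0.43 ± 0.11 (adjusted p = 0.011, against 0.0861 with the Xist term) and Ly96, which encodes MD-2, by 0.35 ± 0.10 (adjusted p = 0.0191, against 0.0557 with the Xist term). The co-receptor gene Cd14 fell (-0.36 ± 0.12, adjusted p = 0.0466, and 0.094 without LPS+MV array 3). Feedback inhibitors went both ways. Tnfaip3, the deubiquitinase A20, rose (0.84 ± 0.15, adjusted p = 0.000401), whereas the inhibitors Nfkbie (-0.62 ± 0.13, adjusted p = 0.0017), Tnip1 (-0.47 ± 0.10, adjusted p = 0.00177) and Irak3 (-0.53 ± 0.11, adjusted p = 0.00125) fell. A second Irak3 probe set did not pass (-0.04 ± 0.08). Of the list of cytokine mRNA decay and SOCS feedback genes, 5 of 13 rose and 0 fell. Its leading member Zfp36 encodes tristetraprolin, which destabilizes cytokine mRNAs. Zfp36 stood at 1983, 2456 and 4857 in LPS+MV lungs and at 977, 847, 605 and 877 in LPS lungs, well apart (1.78 ± 0.26, adjusted p = 5.26e-05, and 1.40 ± 0.26 without LPS+MV array 3). Without that array it was the only one of the 5 still called.

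Of 21 immediate early genes tested, most of them transcription factors, 12 rose and 0 fell (5.97% and 9.45% over all genes), with a median of 0.99. Fosl2, an AP-1 subunit, changed by 1.22 ± 0.21 (adjusted p = 0.000243) and Csrnp1 by 1.42 ± 0.32 (adjusted p = 0.00325). Fos stood at 1649, 1783 and 3889 in LPS+MV lungs and at 596, 759.7, 714 and 1322 in LPS lungs, and Egr1, a zinc finger factor induced by MAP kinase signalling, at 1474, 1684 and 3508 in LPS+MV lungs and at 686, 706, 634 and 1034 in LPS lungs. For both genes LPS+MV array 3 was far above the other LPS+MV arrays and LPS array 4 the highest LPS array. Their changes of 1.44 ± 0.45 (adjusted p = 0.0286) and 1.42 ± 0.45 (adjusted p = 0.0322) were 1.05 (adjusted p = 0.185) and 1.04 (adjusted p = 0.198) without LPS+MV array 3, with adjusted p of 0.11 and 0.186 with the Xist term. Over the list, 4 genes remained called without that array, with a median of 0.51, and 5 with the Xist term, with a median of 0.74. The 4 were Zfp36, Fosl2, Csrnp1 and Nr4a3. Nr4a1 (1.46 ± 0.56, adjusted p = 0.0773) and Atf3 (1.28 ± 0.51, adjusted p = 0.0899) did not pass, and Fosb, Arc and Npas4 were below the filter.

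Genes that respond to cyclic AMP through CREB overlap with these. Of 15 tested, 8 rose and 1 fell (5.97% and 9.45% over all genes), with a median of 0.53. Nr4a3, an orphan nuclear receptor, stood at 247, 325 and 1947 in LPS+MV lungs and at 152, 143, 154 and 169 in LPS lungs, which did not overlap. LPS+MV array 3 set most of its change of 1.64 ± 0.38 (adjusted p = 0.00413), which was 0.76 ± 0.24 (adjusted p = 0.0439) without it. A second Nr4a3 probe set did not pass (-0.05 ± 0.08). Crem, a cyclic AMP response element modulator, rose by 0.96 ± 0.20 (adjusted p = 0.00167), and the phosphodiesterase genes Pde3b (0.53 ± 0.11, adjusted p = 0.00141) and Pde4d (0.42 ± 0.13, adjusted p = 0.029) rose too. Pde4d had an adjusted p of 0.122 without LPS+MV array 3 and 0.0635 with the Xist term. Rgs2, a regulator of G protein signalling, was the exception (-0.71 ± 0.17, adjusted p = 0.00575, with overlapping groups), and was no longer called without LPS+MV array 2. The list's calls numbered 3 higher and 1 lower without LPS+MV array 3. Outside the list, Pde7b, a phosphodiesterase specific for cyclic AMP, stood at 488, 551 and 634 in LPS+MV lungs and at 143, 209, 128 and 125 in LPS lungs, with a wide gap (1.70 ± 0.15, adjusted p = 1.91e-08). Its other probe sets changed by 0.74 ± 0.10 and 0.28 ± 0.05.

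Other early regulators rose in smaller numbers, beside 5.97% higher and 9.45% lower over all genes tested. Of 12 Kruppel-like factors 4 rose, led by Klf7 (1.44 ± 0.27, adjusted p = 0.000593, and 0.70 to 0.77 on its other probe sets) and Klf6 (0.70 ± 0.13, adjusted p = 0.000671), and 1 fell, against 2 and 2 without LPS+MV array 3. Of 10 dual-specificity phosphatases, which switch off MAP kinases, 3 rose, led by Dusp8 (1.07 ± 0.16, adjusted p = 6e-05). Only 1 was called without LPS+MV array 3 and 1 with the Xist term, as Dusp16 (adjusted p = 0.179 and 0.14) and Dusp5 (adjusted p = 0.448 and 0.23) did not pass in either. Of 14 ERK and FGF feedback genes, 3 rose, among them Spry4 (0.84 ± 0.11, adjusted p = 8.91e-06) and Spry2 (0.52 ± 0.13, adjusted p = 0.00601), and Etv5 fell (-0.70 ± 0.10, adjusted p = 2.59e-05). Of the other Etv5 probe sets 1 did not pass (-0.16 ± 0.10). Errfi1, a feedback inhibitor of the EGF receptor, stood at 2012, 2046 and 3044 in LPS+MV lungs and at 820.4, 875, 679 and 694 in LPS lungs, without overlap (1.57 ± 0.29, adjusted p = 0.000671). Of 16 growth arrest and MYC stress genes, 5 rose and 0 fell, led by Myc (0.88 ± 0.13, adjusted p = 4.36e-05), the p53 antagonist Mdm2 (0.50 ± 0.08, adjusted p = 0.00014) and Gadd45a (1.02 ± 0.17, adjusted p = 0.000146). Of 16 circadian clock genes, 2 rose, Bhlhe40 (1.16 ± 0.15, adjusted p = 7.09e-06) and Per1 (1.36 ± 0.32, adjusted p = 0.00496, and 0.0751 without LPS+MV array 3). Of 16 glucocorticoid targets, 4 rose and 1 fell. Besides Errfi1 and Per1, Cebpd rose (1.15 ± 0.26, adjusted p = 0.00352), though its second probe set did not pass (0.19 ± 0.09). Without LPS+MV array 3, 2 were higher and 1 lower.

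The folliculin complex, which couples lysosomal amino acid sensing to the transcription factors TFEB and TFE3, rose on all arrays. Flcn, folliculin, stood at 213, 198 and 335 in LPS+MV lungs and at 74.5, 101, 83.6 and 98.5 in LPS lungs (1.19 ± 0.12, adjusted p = 3.16e-07). Its partner Fnip1 stood at 456, 386 and 496 in LPS+MV lungs and at 209, 193, 182 and 225 in LPS lungs (1.02 ± 0.14, adjusted p = 1.27e-05), and Fnip2 at 478, 382 and 594 in LPS+MV lungs and at 213, 207, 135 and 192 in LPS lungs (1.24 ± 0.15, adjusted p = 3.32e-06). For all 3 genes the groups were separated by a wide margin. Sqstm1, the autophagy receptor p62, rose by 0.69 ± 0.11 (adjusted p = 0.00012) and the Rag GTPase gene Rragc by 0.25 ± 0.06 (adjusted p = 0.00345). In all, 6 of 19 list members rose and 0 fell, beside 5.97% and 9.45% over all genes. The number that rose was 5 without LPS+MV array 3 and 6 with the Xist term. The factors themselves, Tfeb (0.05 ± 0.08, adjusted p = 0.776) and Tfe3 (0.17 ± 0.10, adjusted p = 0.273), and lysosomal Lamp1 (-0.09 ± 0.06, adjusted p = 0.284) did not pass. The Flcn and Fnip1 probe sets are of a kind that can cross-hybridise, as are those of Malat1, Meox2, Srf, Nfkbie, Lpcat1, Hpgd and Cftr. A second Flcn probe set changed by 0.78 ± 0.12 and the other Fnip1 probe sets by 1.13 ± 0.16 and 0.45 ± 0.14.

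Promoters were read from RefSeq windows of GRCm38.p6 to show which cyclic AMP response elements (CRE) lie near the starts of genes that rose. Shown are the folliculin complex genes Flcn, Fnip1 and Fnip2, and Nr4a3 alone of the cyclic AMP list. Errfi1, in neither list, is shown too, and was the only gene found with a full CRE among the 15 highest. The display shows where motifs lie, not how often such genes hold one. The stretches below are each 120 bases long, lie upstream of the transcription start and are on the gene's own strand. Those of Flcn and Errfi1 reach the start, whereas those of Fnip1, Fnip2 and Nr4a3 end farther upstream. All stretches have the short CRE motif TGACG in capitals, read on either strand. A full CRE, TGACGTCA, is 2 overlapping short motifs. They come from chr11:59810040-59810159 for Flcn (minus strand), chr11:54437979-54438098 for Fnip1 (plus), chr3:79567740-79567859 for Fnip2 (minus), chr4:150854950-150855069 for Errfi1 (plus) and chr4:48045055-48045174 for Nr4a3 (plus).
Flcn: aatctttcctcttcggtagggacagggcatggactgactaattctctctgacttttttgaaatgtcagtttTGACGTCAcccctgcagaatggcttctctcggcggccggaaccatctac
Fnip1: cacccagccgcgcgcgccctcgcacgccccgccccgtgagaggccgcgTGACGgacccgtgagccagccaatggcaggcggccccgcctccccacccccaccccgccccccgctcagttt
Fnip2: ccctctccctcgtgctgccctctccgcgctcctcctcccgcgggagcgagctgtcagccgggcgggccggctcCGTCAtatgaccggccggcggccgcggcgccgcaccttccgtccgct
Errfi1: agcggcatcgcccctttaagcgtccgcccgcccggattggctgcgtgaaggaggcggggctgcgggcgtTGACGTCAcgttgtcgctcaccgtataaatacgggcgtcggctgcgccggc
Nr4a3: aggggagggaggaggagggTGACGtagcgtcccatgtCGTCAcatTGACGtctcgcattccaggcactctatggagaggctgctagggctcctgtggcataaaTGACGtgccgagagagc
Flcn and Errfi1 each hold a full CRE within 51 bases of the start, and Nr4a3 holds 4 short motifs. Of all 32851 mouse windows, 1.79% hold a full CRE and 20.8% a short motif. Among the 15 highest genes, 14 matched a window, 1 gene held a full CRE and 6 held a short motif (Errfi1, Il6, Malat1, Nr4a3, Ptgs2 and Rnf144b). Among the 15 lowest, 13 matched, 0 held a full CRE and 4 held a short motif. The heat shock element was found for Hspa1a, Hspa1b and Sowahb among the highest and for Clec14a among the lowest (7.80% of all windows), the AP-1 site TGANTCA for Il6 and Mmp13 (7.81%), and the TATA box TATAAA for 3 genes and 4 genes of those sets (13.6%). A match is a run of letters on either strand and says nothing of a factor's binding.

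Targets of serum response factor and YAP, which respond to stretch and to tension of the actin cytoskeleton, rose in part. Of 18 tested, 6 rose and 1 fell (5.97% and 9.45% over all genes), with a median of 0.21. Srf itself stood at 230.4, 242 and 383 in LPS+MV lungs and at 126, 121, 109 and 107 in LPS lungs, apart on every array (1.07 ± 0.14, adjusted p = 1.38e-05). Ccn2, connective tissue growth factor, stood at 1557, 1945 and 1903 in LPS+MV lungs and at 624, 903, 668 and 595 in LPS lungs (1.34 ± 0.20, adjusted p = 5.85e-05). Control lungs stood at 1964, 2066, 1033 and 2237, so that LPS lungs were the low group and LPS+MV lungs were near untreated ones. Vinculin (Vcl) rose by 0.50 ± 0.10 (adjusted p = 0.0014), and thrombospondin (Thbs1) by 1.25 ± 0.32 (adjusted p = 0.0083, against 0.0869 without LPS+MV array 3 and 0.0904 with the Xist term). Edn1, endothelin-1, fell (-0.46 ± 0.15, adjusted p = 0.0328, against 0.148 and 0.109). Of 14 coagulation genes, 3 rose and 1 fell, against 2 and 0 without LPS+MV array 3. Plaur, the urokinase receptor, stood at 535, 587 and 659 in LPS+MV lungs and at 256, 214, 242 and 233 in LPS lungs (1.22 ± 0.15, adjusted p = 4.36e-06), and F3, tissue factor, rose by 0.94 ± 0.17 (adjusted p = 0.00039).

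Matrix proteases moved in both directions. Of 16 tested, 6 rose and 3 fell, beside 5.97% and 9.45% over all genes. Adamts4, an aggrecanase, stood at 169, 329.8 and 497 in LPS+MV lungs and at 107, 66.5, 90.3 and 99.9 in LPS lungs, without overlap but with a wide spread in LPS+MV lungs (1.47 ± 0.23, adjusted p = 9.14e-05). Adamts1 (1.02 ± 0.23, adjusted p = 0.00302), Adam8 (0.85 ± 0.16, adjusted p = 0.000677) and the membrane protease Mmp14 (0.81 ± 0.19, adjusted p = 0.00374) rose too. Mmp13 fell, as did Mmp12, macrophage elastase (-0.46 ± 0.13, adjusted p = 0.0136, against 0.0567 without LPS+MV array 3 and 0.0524 with the Xist term), and the inhibitor Timp1 (-0.52 ± 0.16, adjusted p = 0.0296, against 0.0598 without that array, overlapping groups). Without LPS+MV array 3, 4 were higher and 1 lower. Of 20 extracellular matrix genes, 0 were called in either direction, and 1 was without that array.

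Txnip, which inhibits thioredoxin and glucose uptake, stood at 1057, 885 and 877 in LPS+MV lungs and at 2298, 2988, 1902 and 2388 in LPS lungs (-1.31 ± 0.17, adjusted p = 1.09e-05), with the lowest LPS array well above the highest LPS+MV array. Its paralogue Arrdc4 fell too (-0.91 ± 0.15, adjusted p = 0.000243). Of the 15 genes of the TXNIP, IRS and FOXO list, 3 fell and 3 rose, beside 9.45% and 5.97% over all genes. Among those that rose were the insulin receptor substrate gene Irs2 (0.64 ± 0.12, adjusted p = 0.000566) and Bcl6 (0.90 ± 0.16, adjusted p = 0.000393), whose second probe set did not pass (0.38 ± 0.16). Of 18 NRF2 and antioxidant genes, 4 rose and 1 fell, against 2 and 2 without LPS+MV array 3. The one that fell was Sod2, mitochondrial superoxide dismutase, which stood at 2324, 2432 and 2561 in LPS+MV lungs and at 3586, 3404, 3389.8 and 3318 in LPS lungs (-0.48 ± 0.07, adjusted p = 2.92e-05). Nfe2l2, which encodes NRF2, rose by 0.55 ± 0.12 (adjusted p = 0.0032) and catalase (Cat) by 0.51 ± 0.11 (adjusted p = 0.00247). Of 20 VEGF, angiopoietin and hypoxia genes 3 rose, led by the glycolytic regulator Pfkfb3 (0.81 ± 0.17, adjusted p = 0.0015), with 2 rising without LPS+MV array 3 and 1 without array 2. Of 16 respiratory chain genes, 4 fell, led by Ndufs3 of complex I (-0.39 ± 0.09, adjusted p = 0.00419), and 2 did without LPS+MV array 3.

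Neutrophil granule transcripts were brighter in LPS+MV lungs. Ngp, neutrophilic granule protein, stood at 793, 459.7 and 654 in LPS+MV lungs and at 73.6, 73.7, 62.0 and 51.7 in LPS lungs (2.75 ± 0.54, adjusted p = 0.000942). Camp, cathelicidin, stood at 220.0, 114 and 151 in LPS+MV lungs and at 36.8, 51.4, 31.0 and 36.7 in LPS lungs (1.42 ± 0.21, adjusted p = 5.85e-05). Both are products of granule-forming precursors, and neither lost its call under any alternative. Mmp8, neutrophil collagenase, stood at 552, 447 and 422 in LPS+MV lungs and at 146, 129, 136 and 115 in LPS lungs, without overlap. Its change of 1.62 ± 0.53 just passed (adjusted p = 0.0375) and did not without any 1 of the 7 arrays, nor with the Xist term (adjusted p = 0.0867) or a pseudocount of 1. The calprotectin gene S100a8 stood at 8123, 7778 and 7701 in LPS+MV lungs and at 3096, 3460.3, 4206 and 3780.5 in LPS lungs. The groups were well apart, yet the change of 1.12 ± 0.56 did not pass (adjusted p = 0.194), in a model whose spread comes from all 8 groups. Of the 12 tested neutrophil markers, 5 rose and 0 fell (5.97% and 9.45% over all genes), with a median of 0.97. Without LPS+MV array 3 or with the Xist term, 2 were called. The summed intensity of the 14 markers on the array was 18190 to 19152 in LPS+MV lungs and 8449 to 10020 in LPS lungs. This sum includes Mpo and Elane, which were below the filter and not tested. As a sum of linear intensities it is weighted to bright members such as S100a8, which did not pass. It therefore does not show a rise across the markers. Of 12 adhesion genes, the endothelial selectins Sele (0.85 ± 0.17, adjusted p = 0.000967) and Selp (0.75 ± 0.18, adjusted p = 0.00461, and 0.0701 with the Xist term) rose. A second Selp probe set did not pass (0.20 ± 0.09). How far the neutrophil markers account for other changes was not tested.

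Markers of resident cells moved less. Beside them, 5.97% of all genes tested rose and 9.45% fell. Of 12 alveolar type 2 markers, 7 fell and 0 rose, with a median of -0.19. They included the phosphate transporter gene Slc34a2 (-0.59 ± 0.12, adjusted p = 0.00128), the surfactant lipid enzyme gene Lpcat1 (-0.45 ± 0.09, adjusted p = 0.0012) and Sftpa1 (-0.22 ± 0.06, adjusted p = 0.00919), and 6 fell without LPS+MV array 3. A second Sftpa1 probe set did not pass (-0.04 ± 0.09). Sftpc itself did not pass (-0.07 ± 0.06, adjusted p = 0.442). Of 11 type 1 markers 2 rose and 2 fell, against 1 and 2 without that array. Among 14 endothelial markers, 1 fell, Egfl7, which stood at 387, 349 and 608 in LPS+MV lungs and at 903, 819, 888 and 804 in LPS lungs (-0.92 ± 0.14, adjusted p = 7.77e-05). Its probe set is of a kind that can cross-hybridise, and of its other probe sets 1 did not pass (-0.26 ± 0.15). Of 9 ciliated cell markers Tppp3 fell (-0.44 ± 0.13, adjusted p = 0.019, against 0.0679 with the Xist term), and of 12 fibroblast and smooth muscle markers Tcf21 rose (0.64 ± 0.21, adjusted p = 0.0376, against 0.305 without LPS+MV array 3 and 0.172 with the Xist term). Of the markers of monocytes and macrophages (14), of T, B and NK cells (15), of airway secretory cells (11), of cardiac muscle (12) and of platelets (7), 0 were called. Nppa, an atrial transcript that reports heart tissue taken with the lung, stood at 78.6, 145 and 284 in LPS+MV lungs and at 177, 81.7, 894 and 4151 in LPS lungs, and was highest on LPS array 4. Of 10 tubulin genes 3 fell, led by Tubb4b, which stood at 636, 720.1 and 719.9 in LPS+MV lungs and at 1287, 1278, 1354 and 1186 in LPS lungs (-0.85 ± 0.09, adjusted p = 3.16e-07). Its other probe sets did not pass (-0.13 ± 0.05 and -0.01 ± 0.10). Tuba8 (adjusted p = 0.0766) and Tuba1a (adjusted p = 0.396, and 0.0867 with the Xist term) were not called without LPS+MV array 3, where 1 tubulin gene was lower and 1 higher. Of 12 tight junction genes, Cldn4 rose (0.39 ± 0.10, adjusted p = 0.0121, against 0.0694 with the Xist term, and not called without LPS+MV array 2), while Tjp3 (-0.60 ± 0.11, adjusted p = 0.000817) and Cgn fell. Cgn (-0.29 ± 0.09, adjusted p = 0.0373) was lost under 7 alternatives, with 0.06 without LPS+MV array 3 and 0.139 with the Xist term.

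**Figure D3:**
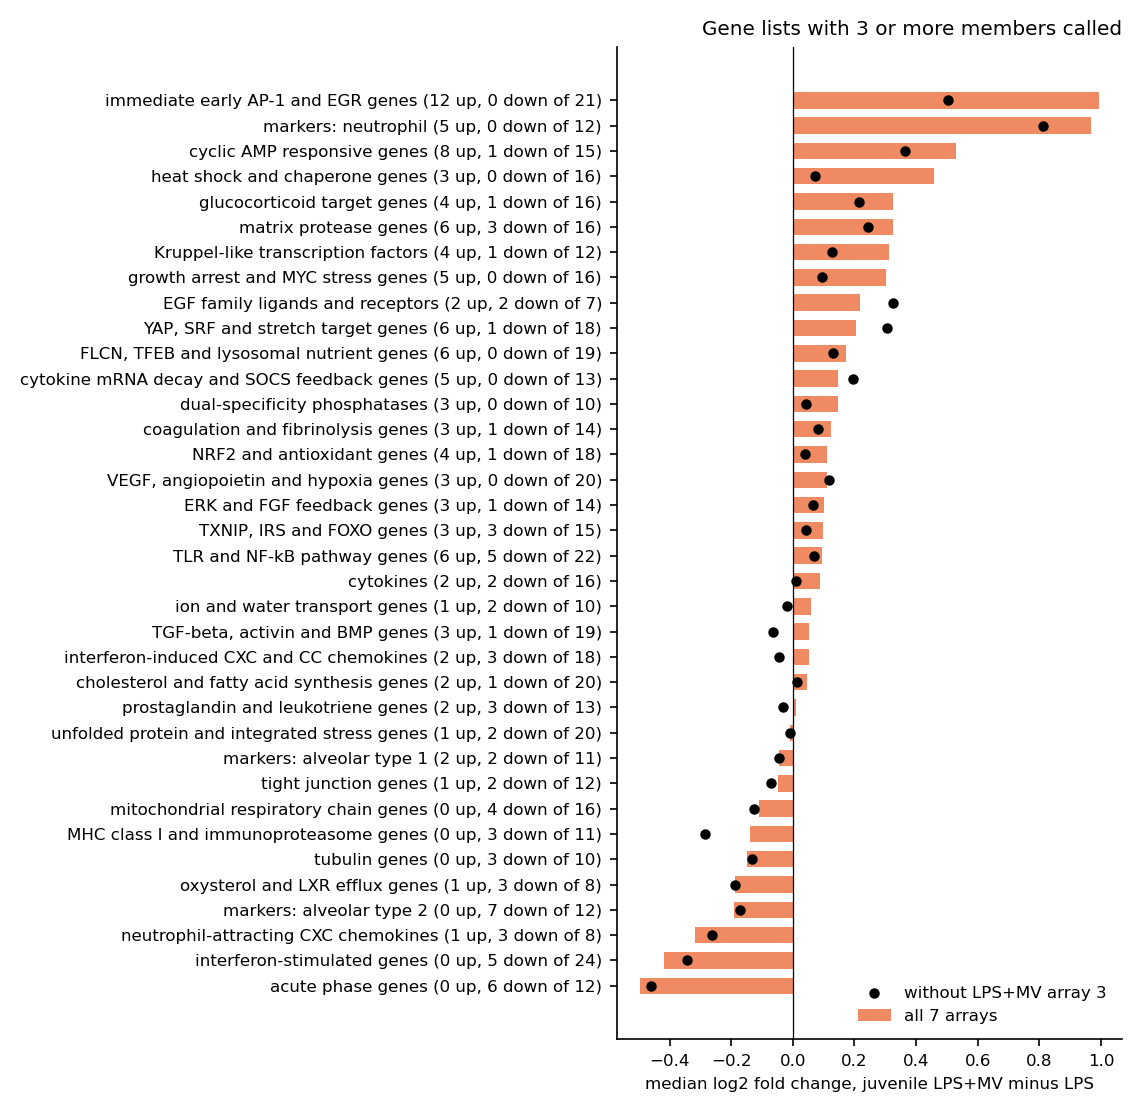
Median log2 fold change (x axis) of juvenile LPS+MV minus LPS over the tested members of each gene list with 3 or more members called, with all 7 arrays (bars) and without LPS+MV array 3 (points). Row labels give the members called higher and lower of those tested. The bars run from 0.99 for immediate early genes to -0.50 for acute phase genes, and the point of the heat shock list lies at 0.07 against a bar at 0.46.

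The remaining lists held few calls, where 5.97% of all genes tested rose and 9.45% fell. Among 19 TGF-beta, activin and BMP genes, Id2 fell (-0.67 ± 0.10, adjusted p = 5.38e-05) and 3 rose, Tgfb3 first among them (0.46 ± 0.12, adjusted p = 0.00965, against 0.104 without LPS+MV array 3 and 0.0882 with the Xist term). Without that array 1 was higher and 4 lower. Among 8 oxysterol and LXR genes, Ch25h, cholesterol 25-hydroxylase, rose (1.04 ± 0.26, adjusted p = 0.00667, against 0.0934 without LPS+MV array 3 and 0.0639 with the Xist term) and 3 fell, led by the receptor gene Nr1h3 (-0.36 ± 0.07, adjusted p = 0.000684), of which 1 did without that array. Of 10 ion and water transport genes, Slc26a4 and Slc34a2 fell and Cftr rose (0.59 ± 0.16, adjusted p = 0.0125, against 0.0748 and 0.0679). Of 20 cholesterol and fatty acid synthesis genes 2 rose and 1 fell, against 0 and 1 without LPS+MV array 3. Of 20 unfolded protein and integrated stress genes 1 rose and 2 fell, against 0 and 1 without that array. Of 8 metallothionein and zinc transport genes 1 fell, and of 7 EGF family genes 2 rose and 2 fell. The probe set that stood for metallothionein gene Mt1 did not pass (0.44 ± 0.25). A second Mt1 probe set, not counted, rose (0.72 ± 0.10, adjusted p = 1.45e-05). Of 21 cell cycle, 9 haem and red cell and 11 ribosomal protein genes, 0 were called with all 7 arrays.

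Heat shock genes had the largest changes, and LPS+MV array 3 held most of them. Hspa1b, an inducible HSP70, stood at 1168, 1048 and 7736 in LPS+MV lungs and at 309, 203, 332 and 232 in LPS lungs, and Hspa1a, a near-identical copy that probes cannot fully separate, at 257, 239 and 2915 in LPS+MV lungs and at 72.4, 49.4, 51.6 and 39.8 in LPS lungs. All 3 LPS+MV arrays were above all LPS arrays, with LPS+MV array 3 many times above the others. The changes of 2.87 ± 0.86 (adjusted p = 0.023) and 2.86 ± 0.89 (adjusted p = 0.0292) were 1.94 ± 0.91 (adjusted p = 0.188) and 1.73 ± 0.91 (adjusted p = 0.253) without it, and also failed with the Xist term. Leaving out LPS array 2 ended both calls, and leaving out LPS array 3 or 4 ended that of Hspa1a. Of 16 heat shock and chaperone genes, 3 rose with all arrays and 0 without LPS+MV array 3, where the list's median was 0.07 against 0.46. The same array was the lowest for Armcx4, Meox2, Tnfsf10, Sox4 and Srsf5, which are among the 15 lowest genes. Armcx4, an X-linked armadillo repeat gene, stood at 134, 145 and 45.8 in LPS+MV lungs and at 267, 240.0, 254 and 249.6 in LPS lungs (-1.11 ± 0.21, adjusted p = 0.000891, and -0.73 ± 0.19 without it). Meox2, a homeobox factor of endothelium and mesenchyme, stood at 128, 98.2 and 31.8 in LPS+MV lungs and at 194, 232, 174 and 164 in LPS lungs (-1.01 ± 0.30, adjusted p = 0.0202, against 0.205 without it and 0.0614 with the Xist term). Tnfsf10, the death ligand TRAIL, and Srsf5, a splicing factor, had adjusted p of 0.0899 and 0.0715 without it. Another Tnfsf10 probe set changed by -0.50 ± 0.21 and did not pass with all arrays.

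**Figure D4:**
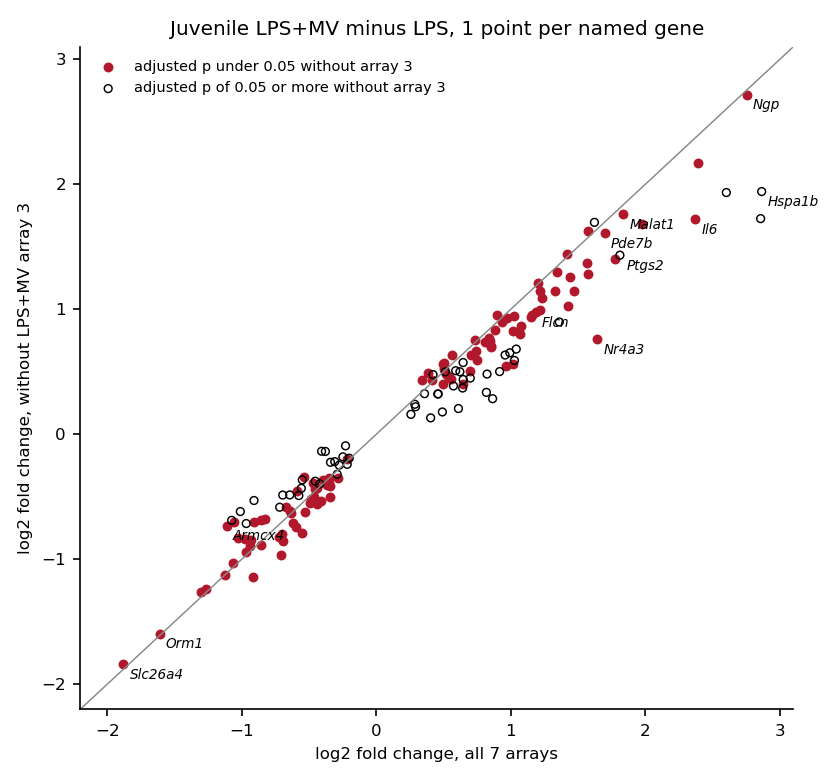
Log2 fold change of juvenile LPS+MV minus LPS with all 7 arrays (x axis) and without LPS+MV array 3 (y axis) for the named genes called with all arrays. The line marks equality. Slc26a4, Orm1 and Ngp lie on the line, while Hspa1b, Il6 and Nr4a3 lie below it, and open circles are genes no longer called without that array.

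The other genes named here come from the sets of highest and lowest genes. Those sets took only called genes whose groups did not overlap, so separation on every array follows from the choice. The RIKEN transcript gene G530011O06Rik stood at 478, 527 and 811 in LPS+MV lungs and at 129.7, 59.0, 88.8 and 79.1 in LPS lungs (2.39 ± 0.27, adjusted p = 1.29e-06). Malat1, a nuclear lncRNA, stood at 898, 1149 and 1201 in LPS+MV lungs and at 356, 258, 173 and 367 in LPS lungs (1.84 ± 0.38, adjusted p = 0.00148), and its 7 probe sets ranged from 0.18 to 1.84. Rnf144b, a ubiquitin ligase gene, stood at 1018, 1239 and 1013 in LPS+MV lungs and at 364, 379, 274 and 362 in LPS lungs (1.58 ± 0.12, adjusted p = 1.35e-09). Sowahb stood at 184, 219.9 and 398 in LPS+MV lungs and at 61.9, 58.9, 64.9 and 70.4 in LPS lungs (1.58 ± 0.19, adjusted p = 3.93e-06). Among the lowest, Tmem100, an endothelial BMP target, stood at 828, 718 and 710.2 in LPS+MV lungs and at 1641, 1787, 1520.1 and 1491 in LPS lungs (-1.07 ± 0.23, adjusted p = 0.00225). A second Tmem100 probe set did not pass (-0.05 ± 0.09). Clec14a, an endothelial surface lectin, stood at 601, 452 and 379.7 in LPS+MV lungs and at 854, 1071, 954 and 956 in LPS lungs (-0.98 ± 0.12, adjusted p = 7.09e-06). The transcription factor genes Sox4 (-1.06 ± 0.23, adjusted p = 0.00211, and -0.78 to -0.05 on its other probe sets) and Zfp503 (-1.03 ± 0.19, adjusted p = 0.000566) and the gene Snn (-0.97 ± 0.13, adjusted p = 1.09e-05) fell as well.

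To relate these changes to the response to LPS itself, genes were classed by adult LPS minus adult control. In that comparison 4706 of 13089 genes passed (36.0%). It has no group in common with juvenile LPS+MV minus LPS, though both share the fit's estimate of the spread. Of the 264 genes at least 2-fold higher in adult LPS lungs (2.02% of those tested), 66 (25.0%) rose and 37 (14%) fell in juvenile LPS+MV lungs relative to juvenile LPS lungs, with a median of 0.18. Over all genes these shares were 5.97% and 9.45%, and the median -0.02. Both shares were above those over all genes, and this was not tested. Those that rose were led by Hspa1b, G530011O06Rik, Il6, Tnfsf9 and Zfp36, and those that fell by Slc26a4, Noxo1, Il33, Elovl6 (adjusted p = 0.0157, against 0.185 without LPS+MV array 3) and Cxcl3. Of the 60 genes at least 2-fold lower in adult LPS lungs (0.458% of those tested), 9 rose (15.0%) and 8 fell (13.3%). Without the 2-fold limit the picture differed. Of the 1694 genes higher in adult LPS lungs, 224 rose (13.2%) and 252 fell (14.9%), with a median of -0.03. Among genes higher in adult LPS lungs, more thus rose than fell only in the 2-fold class. Of the 3012 genes lower in adult LPS lungs, 178 rose (5.91%) and 278 fell (9.23%), near the shares over all genes.

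The same step in adults, and ventilation without LPS in juveniles, compare arrays other than the 7 LPS+MV and LPS arrays. All came from 1 fit, so their calls share its estimate of the spread and are not independent. Adult LPS+MV minus LPS called 922 genes (7.04%), 483 higher (3.69%) and 439 lower (3.35%). Juvenile MV minus control called 1421 (10.9%), 577 higher (4.41%) and 844 lower (6.45%). These counts depend on the fit: juvenile MV minus control called 27 genes with only the compared groups, 651 without MV array 3 and 899 without MV array 1, and adult LPS+MV minus LPS called 246 with the Xist term. The adult comparison has a like imbalance to the juvenile one, since Xist stood at 634, 513, 425 and 18.2 in adult LPS+MV lungs and at 22.5, 23.6, 27.0 and 20.3 in adult LPS lungs. Its part in the likeness below was not tested. The changes correlated across the 13089 genes with those of juvenile LPS+MV minus LPS at Pearson's r = 0.49 (Spearman's rho = 0.48) for the adult step and 0.53 (0.47) for ventilation without LPS, as a description over genes, which are not independent. Of the 2019 genes, 430 were called the same way in adults (21.3% of the juvenile calls and 46.6% of the adult calls) and 3 the opposite way, Ccl12, Csf2 and Disp2. Disp2 lost its juvenile call without LPS+MV array 3 (adjusted p = 0.224) and with the Xist term (adjusted p = 0.182). With ventilation alone 565 were called the same way (28.0% of the 2019 and 39.8% of the 1421) and 9 the opposite way. Of the 15 highest genes 6 were called the same way in adults and 6 with ventilation alone, and of the 15 lowest 8 and 4. Flcn changed by 1.26 ± 0.11 in adults (adjusted p = 8.2e-08) and by 1.10 ± 0.12 with ventilation alone (adjusted p = 7.72e-06), and of its list 6 members rose in adults and 5 with ventilation alone. Immediate early genes had 3 of 21 called higher in adults and 9 with ventilation alone. The neutrophil markers had 0 of 12 and 3, and the acute phase genes 0 of 12 called lower in adults and 1 with ventilation alone. Differences between these counts were not tested as counts.

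**Figure D5:**
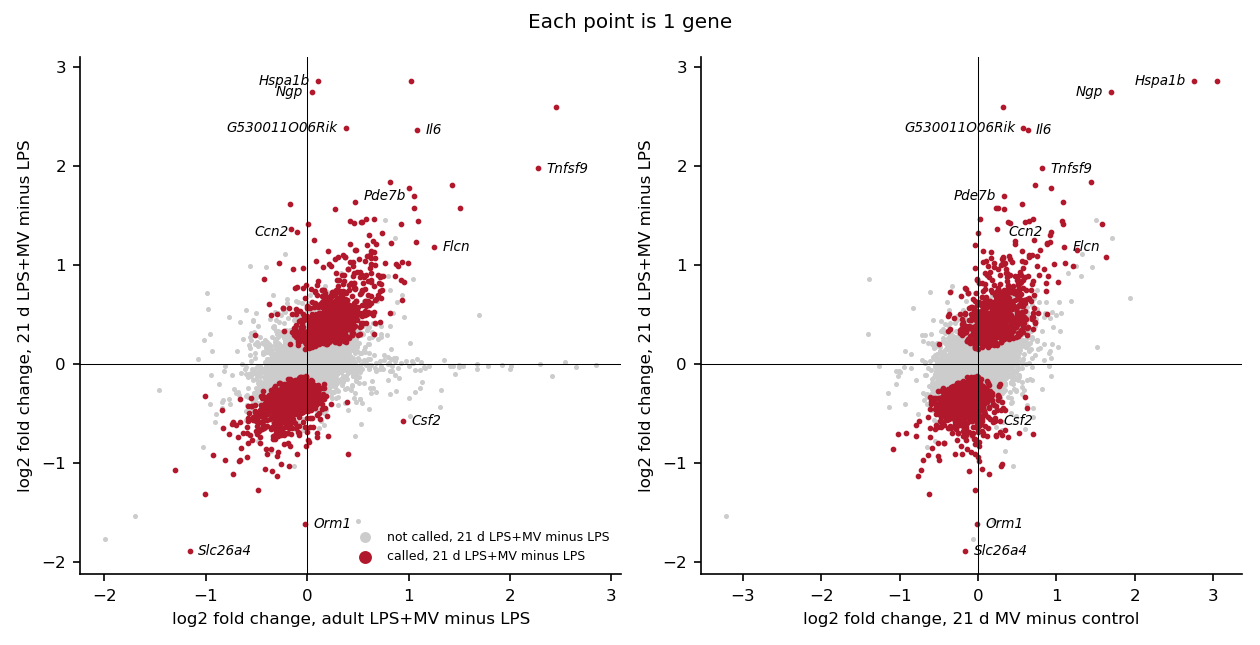
Log2 fold change of juvenile LPS+MV minus LPS (y axes) against adult LPS+MV minus LPS (left, x axis) and juvenile MV minus control (right, x axis), with 1 point per gene and genes called in juvenile LPS+MV minus LPS in red. Most red points lie in the lower left and upper right, and Csf2 lies to the right of 0 and below it on the left plot.

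The test of the difference between ages passed for 22 genes (0.168%), 8 with a higher juvenile change (0.0611%) and 14 with a lower one (0.107%). Orm1 had the lowest difference. It stood at 25.9, 138, 36.5 and 72.7 in adult LPS+MV lungs and at 47.8, 46.6, 83.1 and 72.0 in adult LPS lungs which overlapped (-0.02 ± 0.19, adjusted p = 0.961), with a juvenile minus adult difference of -1.59 ± 0.29 (adjusted p = 0.00883). Csf2 stood at 816, 587, 943 and 761 in adult LPS+MV lungs and at 294, 404, 487 and 363 in adult LPS lungs. It rose in adults (0.95 ± 0.15, adjusted p = 0.000375) and fell in juveniles, a difference of -1.53 ± 0.22 (adjusted p = 0.00368). Il1rn, the interleukin-1 receptor antagonist, rose in adults (0.80 ± 0.12, adjusted p = 0.000177) and did not pass in juveniles (-0.16 ± 0.13, adjusted p = 0.452), a difference of -0.96 ± 0.17 (adjusted p = 0.00914). The highest differences were those of G530011O06Rik (2.00 ± 0.36, adjusted p = 0.00883), Ccn2 (1.44 ± 0.27, adjusted p = 0.0164), Camp (1.41 ± 0.29, adjusted p = 0.0301), Mid1 (1.01 ± 0.17, adjusted p = 0.00613) and Disp2 (0.81 ± 0.14, adjusted p = 0.00613). Camp stood at 18.7, 39.7, 37.2 and 46.2 in adult LPS+MV lungs and at 41.1, 27.0, 37.3 and 32.8 in adult LPS lungs, which overlapped. For Il6 the difference did not pass (1.29 ± 0.54, adjusted p = 0.354), nor for Slc26a4 (-0.73 ± 0.22, adjusted p = 0.182) or Flcn (-0.07 ± 0.17, adjusted p = 0.915).

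The test of whether ventilation acted differently after LPS than without it passed for 98 juvenile genes (0.749%), 44 with a higher change after LPS (0.336%) and 54 with a lower one (0.413%). The highest were G530011O06Rik (1.81 ± 0.38, adjusted p = 0.0139), Adamts4 (1.44 ± 0.33, adjusted p = 0.0281), Pde7b (1.37 ± 0.21, adjusted p = 0.000707), Rnf144b (1.35 ± 0.17, adjusted p = 7e-05) and Rcan1 (1.33 ± 0.25, adjusted p = 0.0069), an inhibitor of calcineurin that stood at 794, 1252 and 1478 in LPS+MV lungs and at 506, 394, 435 and 406 in LPS lungs. The lowest were Slc26a4 (-1.72 ± 0.23, adjusted p = 0.00019), Orm1 (-1.60 ± 0.30, adjusted p = 0.00532), Rgs2 (-1.41 ± 0.24, adjusted p = 0.00259), Zfp503 (-1.31 ± 0.27, adjusted p = 0.0118) and Armcx4 (-1.25 ± 0.30, adjusted p = 0.0463). For Rgs2 both changes passed, in opposite directions. Ventilation without LPS raised it, with 805, 869 and 877 in MV lungs and 589, 455, 485 and 518 in control lungs (0.70 ± 0.17, adjusted p = 0.00943), whereas it stood at 265, 246 and 464 in LPS+MV lungs and at 444, 628, 488 and 579 in LPS lungs, which overlapped. Slc26a4 and Orm1 were dim in MV and control lungs alike. Csf3 differed as well (1.24 ± 0.29, adjusted p = 0.0347), with 18.7, 16.3 and 18 in MV lungs and 15.3, 16.8, 20.9 and 22.6 in control lungs. For Il6 (1.74 ± 0.56, adjusted p = 0.16), Flcn (0.09 ± 0.17, adjusted p = 0.892) and Hspa1b (0.11 ± 1.21, adjusted p = 0.987) the difference did not pass. Hspa1b stood at 3698, 1009 and 14979 in MV lungs and at 759, 1178, 645 and 134 in control lungs, and MV array 3, like LPS+MV array 3, was its highest array. Xist stood at 26.5, 20.9 and 567 on the MV arrays and at 20.2, 22.3, 589 and 21.0 on the control arrays. MV array 3 was thus the MV array with high Xist. The part of this pattern in the heat shock values was not tested.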

How the data were processed

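Total lung RNA of 30 mice was hybridised to Affymetrix mouse 430 2.0 arrays, 1 animal per array, per the labels' protocols. The deposited values are linear probe set intensities, from 4.5 to 25073 (MAS5 is the tool named in the submitters' processing notes). How they were background-corrected and scaled is not given in the sources used here, and array medians of 21.6 to 22.8 show a common scale. From these, log2(intensity + 32) was computed. Of 45037 probe sets, 34945 had 1 gene symbol, 932 several and 9160 none. A probe set was kept if 3 or more arrays had it above the median of that array (24825), and a gene was represented by its probe set with the highest mean (13089 of 18193 genes). All 8 groups were fitted together with limma 3.58.1 in R 4.3.3 (intensity trend, 22 residual degrees of freedom, 1 mean per group), two-sided, with Benjamini-Hochberg adjustment over all genes and a threshold of 0.05. The log2 pseudocount understates the change of dim genes. Values of other probe sets of a gene come from the same fit over all kept probe sets. The median standard error of the log2 change was 0.0918. The model was also run on simulated data in which each gene had the same spread in every group. The LPS+MV arrays were less alike than the LPS arrays, and the simulation does not cover that.

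Genes were named by rule: the 15 highest and 15 lowest called genes whose groups did not overlap, the 5 highest and 5 lowest called in each test of a difference, and list members, first those with the smallest p. Members and lists were chosen with earlier results of these data known. Tables and figures were made with Python 3.11.15, pandas 2.3.3 and matplotlib 3.10.9. Alternatives were a pseudocount of 1, no filter, quantile normalization, probe set means, no trend and array weights. Others were the compared groups alone, a replicate block, an Xist pattern term and leaving out each juvenile array. No adult array was left out. The Xist term divides arrays at the midpoint of the range of log2 Xist. Promoter windows are those of RefSeq, GRCm38.p6.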

Additional observations from a re-analysis of the deposited data

Results flagged for a closer look

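Among 43 genes examined for a stray array in groups of 4, chance puts about 1 in 20 groups past Dixon's limit. In juvenile LPS lungs the lowest Rnf144b array lay apart from the other 3 by 0.855 of the group's range.

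The log2 change of LPS+MV minus LPS differed between ages by the test of the difference for these genes. It was lower in juveniles than in adults for Orm1 (-1.59), Csf2 (-1.53), Il1rn (-0.96), the ephrin gene Efna1 (-0.93), Noxo1 (-0.79) and Sod2 (-0.44). It was higher in juveniles than in adults for G530011O06Rik (2.00), Ccn2 (1.44), Camp (1.41), Mid1 (1.01), Disp2 (0.81) and Spry4 (0.74).

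Within juveniles, the log2 change with ventilation differed after LPS from that without LPS. It was lower after LPS for Slc26a4 (-1.72), Orm1 (-1.60), Rgs2 (-1.41), Zfp503 (-1.31), Armcx4 (-1.25), Noxo1 (-1.22), Clec14a (-0.99), Efna1 (-0.96), Mmp13 (-0.94) and Sod2 (-0.46). It was higher after LPS for G530011O06Rik (1.81), Adamts4 (1.44), Pde7b (1.37), Rnf144b (1.35), Rcan1 (1.33), Sowahb (1.33), Csf3 (1.24) and Mid1 (1.01).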

How the results depend on the processing

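Of 157 named genes called in juvenile LPS+MV minus LPS, 81 were called under all alternatives run and 0 changed sign. Calls were lost for 54 genes without LPS+MV array 3, for 51 with the Xist term and for 35 with only the compared groups in the fit. Uty, a Y-linked gene, turned to 0.44 with the Xist term. Juvenile LPS+MV minus LPS called 2019 genes, against 1132 with the Xist term, 3433 with array weights, 1324 with only the compared groups and 1277 to 1769 when 1 array was left out, the lowest without LPS+MV array 3. Adult LPS+MV minus LPS called 922, against 246 with the Xist term and 1776 with array weights. The age difference called 22, against 233 with array weights, 36 with the mean over probe sets and 34 with the replicate block. It called 13 to 33 when 1 juvenile array was left out, the lowest without juvenile LPS array 1. Juvenile MV minus control called 1421, against 2616 with array weights, 27 with only the compared groups and 651 to 1582 when 1 array was left out (651 without MV array 3, 899 without MV array 1). The difference by LPS called 98, against 508 with array weights, 38 with only the compared groups, 157 with quantile normalization and 54 to 109 when 1 array was left out (54 without LPS+MV array 3, 63 without MV array 1). With the replicate block, juvenile LPS+MV minus LPS called 2153 genes. The numbers did not pair the samples, as deviations of same-numbered LPS+MV and LPS arrays correlated at -0.08, -0.13 and -0.04. The cause of these shifts was not tested. The number of arrays and, for dim genes, the pseudocount limit the precision.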
